A study of Homo sapiens with 192 samples.

Results

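The transcripts of 10 secreted immune signals of the colorectal tumor epithelium were followed in 4 colorectal cancer (CRC) cell lines: the chemokines CXCL1, CXCL2, CXCL3, CXCL8, CXCL16, CCL20 and CCL28 and the interleukins IL18, IL1A and IL32. They are 10 of the 58243 genes counted, chosen by name, and all 10 were among the 19387 genes kept for testing. HT29, LS513, HCT116 and LS174T cells, which are established human CRC lines, were each grown without any drug or genetic change in 2D (as a layer) or in 3D, and 3 libraries were sequenced for each of the 8 groups. Values per library are given in the order of the replicate numbers, which are 1, 2 and 3, or 1, 3 and 4 for HT29 grown in 3D. HCT116 cells were kept in McCoy medium and the other lines in DMEM, so the line and its medium cannot be told apart for HCT116. Each line is a single cancer cell population without the leukocytes, vessels and stroma of a tumor, and no source used here says that the 3 libraries of a group came from separate cultures, so the p-values measure only the spread between these libraries.

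Chemokines are small secreted proteins that steer leukocytes. CXCL1, CXCL2, CXCL3 and CXCL8 carry the letters ELR before their CXC motif, bind CXCR2 (CXCL8 also binds CXCR1) and draw neutrophils, and their genes lie in a cluster on chromosome 4 and are well-known targets of NF-kB. CXCL16 is made as a membrane protein with a chemokine domain for CXCR6 and is shed by ADAM10 and ADAM17. CCL20 draws CCR6-bearing lymphocytes and dendritic cells to mucosa, and CCL28, a mucosal chemokine, acts on CCR10 and CCR3. IL18 and IL1A belong to the IL-1 family. IL18 is stored as a precursor in intestinal epithelium and is cut by caspase-1, whereas IL1A is an alarmin released from damaged cells and trimmed by calpains. IL32 is a cytokine without a close relative and is induced by inflammatory signals in epithelial cells.

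The promoters of the ELR chemokines share a stretch of sequence, which is shown here as a description. Its part in the changes below was not tested. Promoters of 300 bases (250 before and 50 after the start) were taken from RefSeq on GRCh38.p14 for 8 of the 10 genes, without CXCL16 and IL18. The motif GGAATTTCC was chosen as the kappaB motif of chemokine promoters, so its matches in these genes are no independent result. Searched on both strands, the motif lay in the promoters of CXCL1, CXCL2, CXCL3 and CXCL8 and in 0.461% of all 35116 promoters. It began 78 bases before the start in CXCL1 (chr4:73869305-73869333, plus strand), 77 in CXCL2 (chr4:74099254-74099282, minus strand), 78 in CXCL3 (chr4:74038749-74038777, minus strand) and 91 in CXCL8 (chr4:73740468-73740496, plus strand). The motif is in capitals with 10 bases on each side, 5′ to 3′ on the strand of the gene:
CXCL1: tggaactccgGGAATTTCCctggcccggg
CXCL2: tggagctccgGGAATTTCCctggcccggg
CXCL3: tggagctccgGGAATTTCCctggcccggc
CXCL8: tgcaaatcgtGGAATTTCCtctgacataa

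The looser kappaB motif has GGG and CC with any 5 bases between them. It overlapped the first one in CXCL1, CXCL2 and CXCL3, whereas in CXCL8 it began 117 bases before the start, apart from the first. It was present in 58.7% of all promoters and in at least 1 promoter of 7 of the 8 genes. CCL28, IL1A and IL32 had 2 promoters each, and for CCL28 only 1 held a match, so the count of genes is not on the scale of that share. In CCL20 a match began 80 bases before the start (chr2:227813752-227813781, plus strand), and in IL32 a match began 99 bases before it (chr16:3065294-3065323, plus strand). The AP-1 motif TGANTCA was in 7.71% of all promoters, in CXCL8 and in IL1A (chr2:112784489-112784515, minus strand). IL1A was the only gene of the 8 without a kappaB match in any promoter. The interferon response motif, GAAA and GAAA with any 2 bases between them and found in 3.57% of all promoters, was in none of the 8 genes. A match describes these letters only, and binding was not measured. The 3 matches are shown, with the motif in capitals:
CCL20: ttgatcaatgGGGAAAACCCcatgtggcaa
IL32: cctgtactcaGGGAGTTTCCccagccagct
IL1A: cgaagaagacTGACTCAggcttaagct

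Library totals ranged from 18723942 to 34277421 counts, so 3 counts, the number a gene had to exceed to be regarded as detected in a library, correspond to between 0.0853 and 0.164 CPM (counts per 1000000 counts of the library after TMM scaling). The identity of the cells was checked with marker lists. Of 10 colonic epithelium markers, 8 were detected in all 8 groups, while CDH17 averaged 0.0107 CPM and LGALS4 0.120 CPM in HCT116 grown in 2D. Summed over the 10 markers, libraries ranged from 3570 to 18400 CPM in 2D and from 4730 to 17300 CPM in 3D. The markers higher in 3D numbered 5 for HT29, 7 for LS513, 4 for HCT116 and 5 for LS174T, and 1 was lower, in HT29. Of all tested genes, 21.1%, 13.7%, 16.8% and 13.1% were higher in 3D in these lines. Of the 10 leukocyte markers, PTPRC, the gene of the pan-leukocyte antigen CD45, had at most 2 counts in any library, CD53 at most 3, CSF1R at most 8 and the T cell gene CD3E 0. Others were present in some lines, with CD68, LYZ, CD14, ITGAM and NCF4 reaching 2584, 79715, 501, 79 and 81 counts. The summed 10 leukocyte markers ranged from 3.98 to 1440 CPM in 2D and from 8.98 to 2690 CPM in 3D, of which LYZ made most in HT29. CD68 passed the test as higher in 3D in all 4 lines, LYZ in all but HCT116, NCF4 in LS513 and HCT116 (2.43 and 2.01 on the log2 scale) and CD14 in HT29 (1.04). Of 8 fibroblast markers, 5 were detected in no group, but COL1A1 reached 655 counts. Their sum ranged from 0.653 to 22.1 CPM, highest in HCT116 grown in 3D. FAP passed the test as lower in 3D in LS513 (-1.20 on the log2 scale). Of 5 endothelium markers, 1 was detected in no group, and PECAM1 reached 76 counts. Their sum ranged from 0.0299 to 3.19 CPM. Of the 4 tested, 1 was higher in 3D in each of HT29, LS513 and HCT116, beside 21.1%, 13.7% and 16.8% of all tested genes. The part of these marker genes in the results below was not tested.

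Compared per kilobase of exon, CXCL16, IL32 and IL18 were the most abundant transcripts, but not in every line. CXCL16 held first or second place in all 8 groups, with 30.1 ± 3.06 CPM per kilobase (mean ± SD, n = 3) in LS174T grown in 3D. IL32 led in LS513 with 32.2 ± 0.353 in 2D and 60.0 ± 11.3 CPM per kilobase in 3D, and was second in LS174T. HT29 was led by CXCL8, with 5.90 ± 0.584 in 2D and 6.36 ± 3.56 CPM per kilobase in 3D. IL1A stayed at or under 0.364 CPM per kilobase in every group mean, and CCL28, which ranked between place 5 and place 8 of the 10 in HT29 and LS174T, reached 1.22 ± 0.0630 CPM per kilobase in LS174T grown in 3D.

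**Figure D1:**
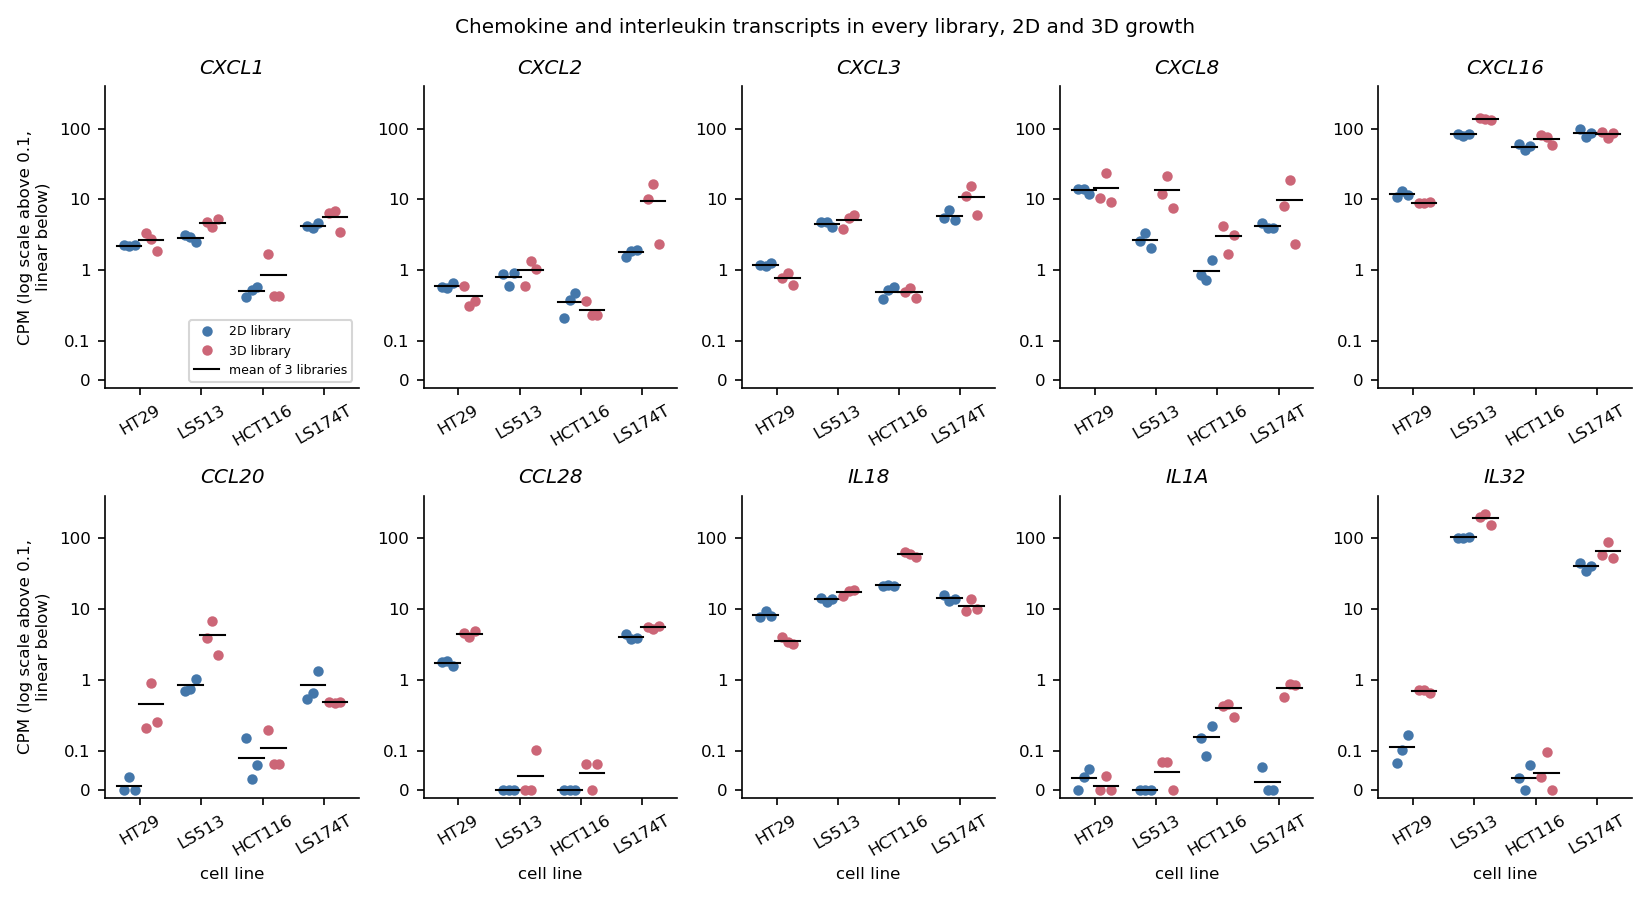
Expression of the 10 genes in each of the 24 libraries. The y axis is CPM, on a log scale above 0.1 and linear below, the x axis is the cell line, points are single libraries grown in 2D (blue) or 3D (red), and black bars are means of 3 libraries. Mean IL18 is lower in 3D in HT29 (8.41 against 3.60 CPM) and higher in HCT116 (21.7 against 59.5 CPM).

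The main question was how the growth condition changes each transcript within a line. A gene was called where its adjusted p was under 0.05 (edgeR quasi-likelihood test, two-sided, Benjamini-Hochberg adjustment over 19387 genes), and fold changes are log2 of 3D over 2D. Growth in 3D raised 3 of the 10 transcripts and lowered 2 in HT29, where 40.7% of all tested genes were called. It raised 4 in LS513, against 23.6% of all genes called in either direction, 2 in HCT116 against 29.1%, and 4 in LS174T against 22.2%. None was lower in LS513, HCT116 or LS174T. Split by direction, the background was 21.1% higher and 19.6% lower for HT29, 13.7% and 9.9% for LS513, 16.8% and 12.3% for HCT116, and 13.1% and 9.15% for LS174T, so the counts for HT29 and HCT116 are near what all genes gave. With the fold cutoffs of the study added (log2 fold change under -0.5 or over 1.5), 3 of the 10 passed for HT29 (background 17.4%), 2 for LS513 (8.03%), 0 for HCT116 (9.28%) and 2 for LS174T (7.26%). The 2D and 3D libraries did not overlap for 6 of the 10 transcripts in HT29, where this held for 52.9% of all tested genes, and the same count was 6 for LS513 (42.9%), 3 for HCT116 (40.4%) and 5 for LS174T (38.5%). The median log2 fold change over the transcripts given a fold was 0.10 for HT29 (9 genes), 0.71 for LS513 (8 genes), 0.59 for HCT116 (8 genes) and 0.59 for LS174T (10 genes), beside medians over all tested genes between 0.00 and 0.02. No fold is given where neither group had a library above 3 counts, which left out IL1A in HT29 and LS513, CCL28 in LS513 and HCT116, and IL32 in HCT116. In these cultures, fewer cells making a transcript and less RNA per cell cannot be told apart.

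**Figure D2:**
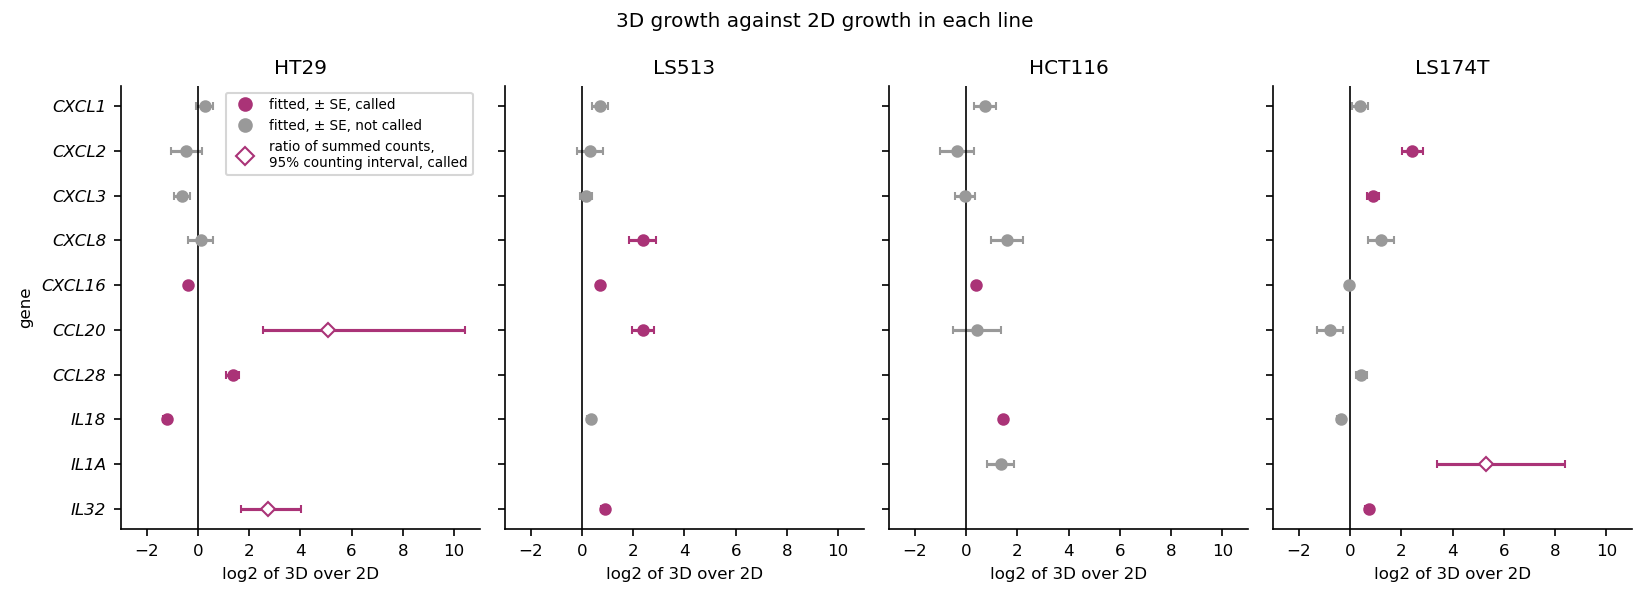
Change of the 10 transcripts between 3D and 2D in each line. The x axis is the log2 ratio of 3D over 2D and the y axis lists the genes, filled circles are fitted log2 fold changes ± SE, and open diamonds are ratios of summed counts with 95% counting intervals for genes with at most 3 counts in every 2D library. Called changes are purple and the others grey, and IL18 lies at -1.22 in HT29 and 1.46 in HCT116.

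Among the ELR chemokines, CXCL2 and CXCL3 rose in 3D in LS174T and were not called in the other lines, and CXCL1 was called in no line. CXCL2 (ENSG00000081041, GRCh38 chr4:74097035-74099293, minus strand) was at 1.53, 1.88 and 1.93 CPM in the 3 LS174T libraries grown in 2D and at 10.1, 16.3 and 2.33 CPM in those grown in 3D. All 3D libraries were above all 2D libraries, but replicate 3 only just, and the log2 fold change was 2.42 (SE 0.41, adjusted p = 0.000252). Without replicate 2 of 3D it was 1.82, and still called. CXCL2 was low in the other lines, between 0.211 and 1.35 CPM in every library, and the 2D and 3D libraries overlapped in each of them.

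CXCL3 (ENSG00000163734, chr4:74036589-74038807, minus strand) had 5.53, 7.11 and 5.07 CPM in LS174T in 2D and 11.3, 15.6 and 5.96 CPM in 3D. Here the groups overlapped, since replicate 3 of 3D fell inside the 2D range, and the log2 fold change was 0.89 (SE 0.23, adjusted p = 0.00933). The call was lost without replicate 2 of 3D (adjusted p = 0.110), without replicate 3 of 2D (0.0528), and with only the 6 LS174T libraries in the fit (0.115). In HT29 the direction was the other way, with 1.17, 1.13 and 1.26 CPM in 2D and 0.784, 0.899 and 0.617 CPM in 3D, which do not overlap, but the log2 fold change of -0.62 did not pass the test (adjusted p = 0.138). LS513 held 3.84 to 5.96 CPM and HCT116 0.393 to 0.578 CPM over all libraries, with overlapping groups in both. CXCL2 and CXCL3 share sequence: 7.07% of the 75-base windows of CXCL2 and 4.57% of those of CXCL3 also occur in another gene of the cluster, and reads from these windows were removed by the authors as multiple matches.

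CXCL1 (ENSG00000163739, chr4:73869393-73871242, plus strand) overlapped between 2D and 3D in 3 of the 4 lines. HT29 libraries lay between 1.89 and 3.35 CPM, HCT116 libraries between 0.423 and 1.70 CPM and LS174T libraries between 3.44 and 6.85 CPM. In LS513 the libraries parted, with 3.12, 2.96 and 2.50 CPM in 2D and 4.72, 4.12 and 5.20 CPM in 3D. The log2 fold change there was 0.71 (SE 0.30), with an adjusted p of 0.0967 that turned to 0.0142 with no filter on low genes and to 0.00922 with only the LS513 libraries.

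CXCL8 (ENSG00000169429, chr4:73740506-73743716, plus strand), which codes for interleukin 8, rose in LS513. Its 2D libraries held 2.54, 3.32 and 2.06 CPM and its 3D libraries 12.0, 21.5 and 7.59 CPM, every one above the 2D range. The log2 fold change was 2.37 (SE 0.54, adjusted p = 0.00271). HCT116 also had all 3D libraries higher (4.16, 1.70 and 3.14 CPM against 0.846, 0.719 and 1.38 CPM), with a log2 fold change of 1.62 and an adjusted p of 0.0572. That value missed the threshold in the main edgeR fit. It passed with DESeq2 (adjusted p = 0.0221), with the HCT116 libraries alone (0.00629) and with no filter on low genes (1.265e-10). LS174T had 4.61, 3.95 and 3.97 CPM in 2D and 8.18, 18.6 and 2.30 CPM in 3D, so that 1 of its 3D libraries was below and 2 were above every 2D library. The log2 fold change of 1.20 was not called (adjusted p = 0.0965), and it became 1.68 without replicate 3 of 3D (adjusted p = 0.00731). With no filter on low genes and all libraries kept, CXCL8 was called in LS174T (adjusted p = 4.12e-09). HT29, the line with the most CXCL8 in 2D (14.2, 14.1 and 11.9 CPM), had 10.3, 23.8 and 9.25 CPM in 3D, on both sides of the 2D range.

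The 3D libraries of LS174T stood in the same order for all 4 ELR chemokines and for IL32. Set against the mean of the 2D libraries, replicate 2 was highest with ratios of 1.62 for CXCL1, 9.18 for CXCL2, 2.64 for CXCL3 and 4.45 for CXCL8. Replicate 1 came next with 1.5, 5.68, 1.91 and 1.96, and replicate 3 was lowest with 0.812, 1.31, 1.01 and 0.552. For IL32 the ratios were 2.21, 1.45 and 1.34 in that order. IL18 had its highest ratio in replicate 2 as well (0.975), but there replicate 3 (0.709) was above replicate 1 (0.652). LS174T grown in 3D was also the group whose libraries differed most over all genes, with a median chi-square of 14.8 times its expected median between its 3 libraries, beside 3.07 to 8.60 in the other groups. The same order of replicates, 2 before 1 before 3, was seen in LS513 for CXCL8 (8.14, 4.53 and 2.87), CCL20 (8.2, 4.72 and 2.74) and IL32 (2.18, 1.93 and 1.48), but not for CXCL1, CXCL2 or CXCL3. Whether libraries with the same replicate number in different lines are linked was not tested.

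**Figure D3:**
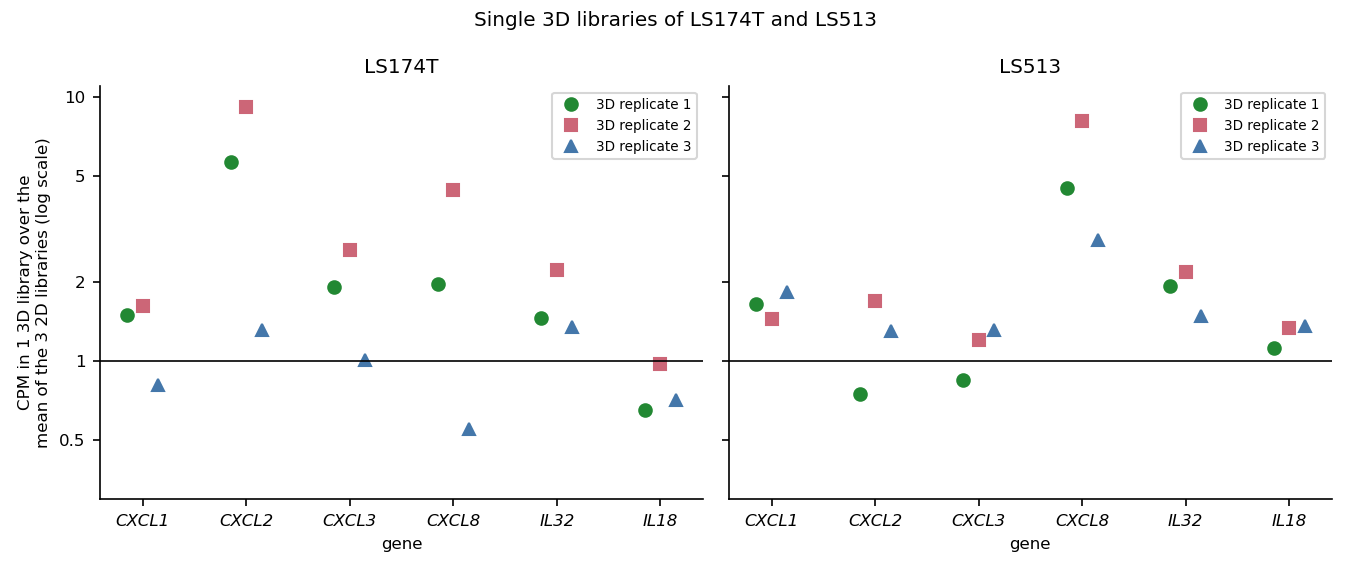
Single 3D libraries of LS174T (left) and LS513 (right). The y axis is the CPM of a 3D library divided by the mean CPM of the 3 2D libraries of the line, on a log scale, the x axis lists 6 genes, and each symbol is a 3D replicate. In LS174T, replicate 2 is highest for the 4 ELR chemokines, up to 9.18 for CXCL2, and replicate 3 lowest.

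CXCL16 (ENSG00000161921, chr17:4733526-4739922, minus strand) was abundant in LS513, HCT116 and LS174T and lower in HT29, and moved in opposite directions in HT29 and LS513. The LS513 libraries held 84.7, 78.3 and 84.9 CPM in 2D and 142, 135 and 130 CPM in 3D, without overlap, a log2 fold change of 0.71 (SE 0.12, adjusted p = 0.000102). HCT116 had 60.5, 49.2 and 56.6 CPM in 2D and 81.3, 76.9 and 57.9 CPM in 3D. These groups overlapped through replicate 3 of 3D, and the log2 fold change was 0.38 (SE 0.12, adjusted p = 0.0183).

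The HCT116 call for CXCL16 was lost without replicate 2 of 2D (adjusted p = 0.112), without replicate 1 (0.142) or replicate 2 (0.1002) of 3D, and with only the HCT116 libraries (0.0700). In HT29 the level went from 10.7, 13.04 and 11.5 CPM in 2D to 8.96, 9.02 and 9.03 CPM in 3D. All 3D libraries were lower, and the log2 fold change was -0.38 (SE 0.13, adjusted p = 0.0228). This call too was fragile: it was lost in 5 of 6 fits that left out 1 HT29 library, all but the fit without replicate 1 of 2D, with adjusted p-values up to 0.178. LS174T kept 97.2, 75.3 and 87.6 CPM in 2D and 90.4, 74.3 and 87.2 CPM in 3D, a log2 fold change of -0.05 (SE 0.12).

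The genes of its shedding enzymes, ADAM10 and ADAM17, were not called in LS513, HCT116 or LS174T. In HT29 both fell, ADAM10 by 0.41 on the log2 scale (226 CPM in 2D and 169 CPM in 3D, adjusted p = 0.0276) and ADAM17 by 0.33 (55.7 and 44.3 CPM, adjusted p = 0.0141). Some exons of CXCL16 overlap MED11 on the other strand, and 0.395% of its 75-base windows also occur in MED11.

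CCL20 (ENSG00000115009, chr2:227805739-227817564, plus strand) rose in 3D in LS513 and in HT29 and was not called in LS174T or HCT116. In LS513 it went from 0.708, 0.755 and 1.05 CPM in 2D to 3.94, 6.86 and 2.29 CPM in 3D, without overlap, a log2 fold change of 2.38 (SE 0.43, adjusted p = 0.000274). In HT29 it was hardly there in 2D, with 0, 1 and 0 counts, and had 7, 26 and 7 counts in 3D, the 26 in replicate 3. The ratio of summed counts, scaled to library size, was 34.1 with a 95% counting interval from 5.78 to 1380, and the gene was called (adjusted p = 0.00130).

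LS174T had 0.538, 0.654 and 1.33 CPM of CCL20 in 2D and 0.491, 0.474 and 0.491 CPM in 3D. All 3D libraries were lower, but the log2 fold change of -0.79 was not called (SE 0.49, adjusted p = 0.261). HCT116 held at most 0.199 CPM. The CCL20 receptor gene CCR6 was present mainly in LS513, at 2.41 CPM in 2D and 1.27 CPM in 3D.

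CCL28 (ENSG00000151882, chr5:43376645-43412391, minus strand) was a transcript of HT29 and LS174T. In LS513 and HCT116 no library had more than 3 counts, and all 2D libraries of these lines had 0, which allows up to 3 counts each. HT29 rose from 1.78, 1.82 and 1.59 CPM in 2D to 4.55, 4.01 and 4.90 CPM in 3D. The libraries of each group lay close together and far from the other group, with a log2 fold change of 1.36 (SE 0.25, adjusted p = 0.000268). LS174T had 4.39, 3.81 and 3.97 CPM in 2D and 5.58, 5.21 and 5.77 CPM in 3D. These do not overlap either, but the log2 fold change was 0.44 (SE 0.23) with an adjusted p of 0.167, which was 0.0393 with DESeq2. Its receptor genes CCR10 and CCR3 had at most 15 and 8 counts in any library.

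IL18 (ENSG00000150782, chr11:112143251-112164117, minus strand) changed in opposite directions in HCT116 and HT29. In HCT116 it rose from 21.6, 22.3 and 21.1 CPM in 2D to 64.8, 59.5 and 54.1 CPM in 3D, the largest values of any line, with a log2 fold change of 1.46 (SE 0.13, adjusted p = 2.79e-08). In HT29 it fell from 7.82, 9.29 and 8.11 CPM to 4.04, 3.49 and 3.27 CPM, a log2 fold change of -1.22 (SE 0.15, adjusted p = 1.24e-06). Neither pair of groups overlapped. LS513 had 14.6, 12.7 and 13.9 CPM in 2D and 15.5, 18.2 and 18.7 CPM in 3D, also apart, with a log2 fold change of 0.35 (SE 0.13) and an adjusted p of 0.0600. LS174T went the other way, from 16.0, 13 and 14.2 CPM to 9.38, 14.0 and 10.2 CPM, with 1 of the 3D libraries inside the 2D range, a log2 fold change of -0.36 (SE 0.13) and an adjusted p of 0.0528. Both values are close to the threshold, and DESeq2 placed both under it, with adjusted p-values of 0.0345 in LS513 and 0.0352 in LS174T.

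The machinery that matures IL18 was unequal between the lines. CASP1, the gene of caspase-1, had 57 to 114 counts in the LS174T libraries (2.04 CPM in 2D and 3.54 CPM in 3D, not called), at most 5 counts in HT29 and 0 in LS513 and HCT116. PYCARD, the adaptor that joins sensors to caspase-1, averaged 0.0109 CPM in HCT116 grown in 3D, the group richest in IL18, and rose by 1.67 in HT29 (SE 0.22, 11.1 CPM in 2D and 35.0 CPM in 3D, adjusted p = 6.16e-06) and by 0.70 in LS513 (adjusted p = 0.0191). The sensor gene NLRP1 rose by 1.23 in HCT116 (3.57 CPM in 2D and 8.37 CPM in 3D, adjusted p = 3.54e-05) and stood at 120 and 110 CPM in LS174T. CASP4, an inflammatory caspase that also cuts IL18, rose in all 4 lines, by between 0.59 and 1.16 on the log2 scale. IL18BP, the decoy that binds IL18, was detected in all 8 groups with 2.47 to 7.09 CPM, and the receptor gene IL18R1 had at most 1.93 CPM.

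IL1A (ENSG00000115008, chr2:112773915-112784590, minus strand) was scarce everywhere and rose in 3D in LS174T. There it had 2, 0 and 0 counts in 2D and 19, 24 and 28 counts in 3D, which is 0.582, 0.875 and 0.860 CPM. The ratio of summed counts was 39.2 (95% counting interval 10.5 to 330), and the adjusted p was 2.49e-05. HCT116 had 5, 3 and 7 counts in 2D and 13, 14 and 9 counts in 3D, without overlap, with a log2 fold change of 1.36 (SE 0.52) that was not called (adjusted p = 0.0552). HT29 and LS513 stayed at or under 3 counts in every library, so no change was detectable at this depth. CAPN2, a calpain subunit gene, fell by 1.07 on the log2 scale in HT29 (SE 0.09, 362 CPM in 2D and 172 CPM in 3D, adjusted p = 1.31e-08) and rose by 0.30 in LS513 (adjusted p = 0.0200), while CAPN1, the gene of another calpain, rose by 0.25 in HCT116 (adjusted p = 0.0460).

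IL32 (ENSG00000008517, chr16:3065297-3082192, plus strand) was abundant in LS513 and LS174T, scarce in HT29 and nearly undetected in HCT116. LS513 held 103, 103 and 105 CPM in 2D and 199, 225 and 153 CPM in 3D, all 3D libraries higher, with a log2 fold change of 0.90 (SE 0.16, adjusted p = 0.000299). LS174T held 44.9, 34.7 and 40.8 CPM in 2D and 58.3, 88.6 and 53.7 CPM in 3D, again without overlap, with a log2 fold change of 0.73 (SE 0.16, adjusted p = 0.00315). That call was lost when only the 6 LS174T libraries were fitted (adjusted p = 0.0626). In HT29 it was scarce but rose, from 2, 3 and 3 counts in 2D to 24, 21 and 18 counts in 3D, a ratio of summed counts of 6.72 (95% counting interval 3.21 to 16.2, adjusted p = 0.000345). HCT116 had at most 3 counts in any library. The gene shares 129 bases of exon with RNU1-125P on its strand, and 1.32% of its 75-base windows also occur there.

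Whether the change with growth differed between the lines was tested directly, by 1 joint test over the 4 lines for each gene. It passed for 6 of the 10 transcripts, where 17.1% of all tested genes passed. IL18 was first with an adjusted p of 1.7e-08, followed by CXCL16 with 0.000325, CCL20 with 0.00183, CXCL2 with 0.00931, IL1A with 0.0189 and CXCL3 with 0.0465. The values for CCL28 (0.0550), IL32 (0.0990), CXCL8 (0.135) and CXCL1 (0.826) missed the threshold, which does not show that these changes were equal in the lines. With DESeq2, 7 transcripts passed, CCL28 (0.00556) and IL32 (0.0144) among them. With no filter on low genes, 9 passed, now with CXCL8 (9.46e-15), IL32 (0.00217) and CCL28 (0.0189).

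The 6 pairs of lines were then compared, where the share of all tested genes called was 12.1% for HT29 against LS513, 7.76% for HT29 against HCT116, 6.65% for HT29 against LS174T, 4.34% for LS513 against HCT116, 3.62% for LS513 against LS174T and 4.75% for HCT116 against LS174T. For IL18, all 6 pairs differed in their change, from 0.71 on the log2 scale between LS513 and LS174T (SE 0.19, adjusted p = 0.0328) to -2.68 between HT29 and HCT116 (SE 0.20, adjusted p = 9.0e-09). For CXCL16, HT29 differed from LS513 by -1.09 (SE 0.18, adjusted p = 0.000133) and from HCT116 by -0.76 (SE 0.18, adjusted p = 0.00698). The change of CXCL16 in LS513 exceeded that in LS174T by 0.76 (SE 0.17, adjusted p = 0.00807). The change of CCL20 in LS513 exceeded that in LS174T by 3.16 (SE 0.65, adjusted p = 0.00487), and that in HT29 also differed from LS174T (adjusted p = 0.00584). The change of CXCL2 was larger in LS174T than in HT29 (difference 2.87 in size, written HT29 minus LS174T as -2.87, SE 0.73, adjusted p = 0.0177) and than in HCT116 (-2.78, SE 0.79, adjusted p = 0.0435), while LS513 and LS174T were not called apart (adjusted p = 0.0763). For CXCL8, HT29 differed from LS513 by -2.265 (SE 0.72, adjusted p = 0.0438), though its joint test missed the threshold. The same held for IL32 in HT29 against LS513 (adjusted p = 0.04495) and LS174T (0.0423), with at most 3 counts in HT29 in 2D. For CXCL3, HT29 differed from LS174T by -1.505 (SE 0.40, adjusted p = 0.0238). For IL1A, HCT116 differed from LS174T (adjusted p = 0.0287).

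Levels also set the lines apart. For the pairs in the order just given, the share of all tested genes called was 60.6%, 68.8%, 64.6%, 68.3%, 57.6% and 68.3% in 2D and 61.9%, 68.5%, 65.5%, 68.5%, 60.9% and 67.2% in 3D. Of the 60 comparisons of a gene between a pair of lines, 44 were called in 2D (73.3%, against 64.7% of all such comparisons over the tested genes) and 47 in 3D (78.3% against 65.4%), and the members' shares were not tested against these backgrounds. In 2D, CXCL16 was ordered LS174T, LS513, HCT116, HT29, and only the first pair of neighbours was not called apart (adjusted p = 0.642). IL32 was ordered LS513, LS174T, HT29, HCT116 in 3D, and LS513 and LS174T also led in 2D, where the other lines were at or under 3 counts, with LS513 above LS174T by 1.36 (SE 0.17, adjusted p = 1.75e-07) and by 1.53 (SE 0.17, adjusted p = 2.48e-08) on the log2 scale. The order of IL18 was HCT116, LS174T, LS513, HT29 in 2D, with LS174T and LS513 not called apart (adjusted p = 0.703). In 3D it became HCT116, LS513, LS174T, HT29, and every neighbour was called apart, HCT116 lying 1.77 above LS513 (SE 0.13, adjusted p = 2.46e-11).

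The chemokine orders were looser. CXCL1 ran LS174T, LS513, HT29, HCT116 in both conditions, and in 2D only HT29 against HCT116 was called among neighbours (2.13, SE 0.39, adjusted p = 3.52e-05). CXCL2 ran in the same order, with LS174T above LS513 by 1.16 in 2D (SE 0.47, adjusted p = 0.0383) and by 3.25 in 3D (SE 0.44, adjusted p = 9.16e-07). The 2D call was lost in 5 of 6 fits that left out a library of these groups, all but the fit without LS174T replicate 1, with adjusted p-values up to 0.126. CXCL3 also ran LS174T, LS513, HT29, HCT116, with LS513 above HT29 by 1.94 in 2D (SE 0.28, adjusted p = 1.85e-06) and by 2.72 in 3D (SE 0.29, adjusted p = 1.61e-08).

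CXCL8 was highest in HT29 in 2D, above LS174T by 1.69 (SE 0.51, adjusted p = 0.00682). In 3D, HT29, LS513 and LS174T were not called apart as neighbours (adjusted p = 0.922 and 0.389). LS174T was above HCT116 by 1.68 (SE 0.53, adjusted p = 0.00835), which became 0.86 and was not called without replicate 2 of LS174T in 3D (adjusted p = 0.158). CCL20 in 3D was higher in LS513 than in LS174T by 3.16 (SE 0.46, adjusted p = 2.23e-06), whereas in 2D these lines were not called apart (difference 0.01, SE 0.46). CCL28 was higher in LS174T than in HT29 in 2D by 1.22 (SE 0.25, adjusted p = 0.000243), and in 3D the 2 lines were not called apart (0.30, SE 0.23, adjusted p = 0.258).

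The receptors of the neutrophil chemokines and of CXCL16 were practically absent from these epithelial cells: CXCR2 had at most 3 counts, CXCR6 at most 1 and CXCR1 at most 5 in any library. Of 21 receptor and decoy genes, 9 were tested, and 2 rose and 1 fell in HT29 (40.7% of all genes called), 3 rose in LS513 (23.6%), 3 rose in HCT116 (29.1%) and 1 fell in LS174T (22.2%), so no line had more than 33.3% of the 9 called. IL1R1, the signaling receptor for IL1A, rose by 1.28 in HT29 (0.722 CPM in 2D and 1.71 CPM in 3D, adjusted p = 0.00296) and by 0.82 in LS513 (1.18 and 2.08 CPM, adjusted p = 0.0377). IL1R2, a decoy receptor, was at 143 CPM in 2D in LS513, fell by 0.85 in HT29 (6.68 and 3.75 CPM, adjusted p = 0.00901) and fell by 0.90 in LS174T (2.10 CPM in 2D and 1.13 CPM in 3D, adjusted p = 0.0436). IL1RAP, the shared accessory chain, rose by 0.50 in LS513 (adjusted p = 0.0381) and by 1.47 in HCT116 (2.98 CPM in 2D and 8.27 CPM in 3D, adjusted p = 2.82e-06). CXCR4, the receptor for another chemokine, CXCL12, rose by 3.20 in HCT116 (SE 0.30, 0.444 CPM in 2D and 4.10 CPM in 3D, adjusted p = 5.05e-08), by 1.07 in HT29 and by 0.80 in LS513.

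Of 21 processing, release and inflammasome genes, 15 were tested, with 5 higher and 3 lower in 3D for HT29, 5 and 1 for LS513, 6 and 1 for HCT116, and 3 and 0 for LS174T. The shares called were 53.3%, 40.0%, 46.7% and 20%, beside 40.7%, 23.6%, 29.1% and 22.2% of all genes. S100A13, which takes part in the release of IL1A, rose by 0.75 in HT29 (adjusted p = 0.0153), by 0.77 in LS513 (59.6 CPM in 2D and 102 CPM in 3D, adjusted p = 0.0213) and by 1.26 in HCT116 (43.1 and 103 CPM, adjusted p = 0.000481). GSDMD, the pore protein of pyroptosis, rose by 0.81 in HT29 (31.9 ± 4.06 CPM in 2D and 55.7 ± 0.727 CPM in 3D, adjusted p = 0.00193), by 0.52 in HCT116 (adjusted p = 0.0419) and by 0.56 in LS174T (37.6 ± 2.49 CPM in 2D and 55.6 ± 24.2 CPM in 3D, adjusted p = 0.0369).

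All 14 genes of NF-kB subunits and feedback regulators were tested, with 8 higher and 1 lower in 3D for HCT116 (29.1% of all genes called), 4 and 2 for HT29 (40.7%), 4 and 2 for LS174T (22.2%), and 4 and 0 for LS513 (23.6%). For HT29 and LS513 these shares of the list, 42.9% and 28.6%, are near the background. The median log2 fold change of the list was 0.11 for HT29, 0.17 for LS513, 0.45 for HCT116 and 0.15 for LS174T. TNIP1, a feedback inhibitor of NF-kB, rose in every line, by 0.79 (HT29), 0.71 (LS513), 1.05 (HCT116) and 0.73 (LS174T).

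Other NF-kB genes changed in some lines. BIRC3, an NF-kB target with a role in cell survival, rose in HCT116 (1.28, SE 0.22, adjusted p = 0.000138). NFKB1 fell by 0.45 in HT29, 0.32 in HCT116 and 0.27 in LS174T, and REL fell in HT29 (-0.89, adjusted p = 0.0268) and in LS174T (-0.86, adjusted p = 0.0482). ZFP36, which destabilizes cytokine mRNAs, rose in HT29 (0.71, adjusted p = 0.00405), in LS513 (0.70, adjusted p = 0.00838) and in LS174T (0.89, adjusted p = 0.00216). RELB, a subunit of the noncanonical pathway, rose by 0.68 in HT29, 0.97 in HCT116 and 0.85 in LS174T, and NFKBIA, the gene of the inhibitor IkB alpha, rose by 0.63 in HCT116 and 0.55 in LS174T. RELA and NFKB2 rose in LS513 (0.44 and 0.61) and in HCT116 (0.38 and 0.53).

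**Figure D4:**
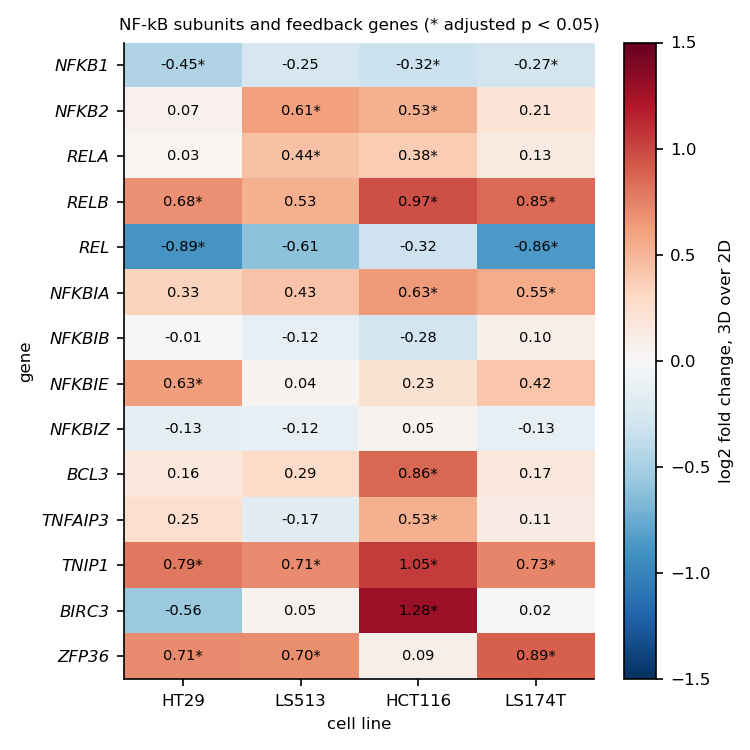
Log2 fold change of 3D over 2D for 14 genes of NF-kB subunits and feedback regulators (y axis) in the 4 lines (x axis), shown by color and printed in each cell, with an asterisk for adjusted p under 0.05. TNIP1 is called in all 4 lines, between 0.71 and 1.05, and 9 of the 14 genes are called in HCT116.

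The genes whose pattern over the 8 group means of log2(CPM + 1) was most like that of each transcript were picked by Pearson's r, as a description over 8 points that share libraries within a line. For CXCL1 they were TMSB4X (r = 0.995) and TXN (0.983), for CXCL3 B4GAT1 (0.988) and SMAP2 (0.985), and for CXCL8 GGPS1 (0.970) and MPZL3 (0.966). BTNL3 (0.980) and the unnamed gene ENSG00000279602 (0.981) were nearest to CXCL2, MID2 (0.992) and FUCA2 (0.990) to CXCL16, MUC17 (0.958) and CCT8P1 (0.952) to CCL20, and UBXN10 (0.997) and ZNF419 (0.991) to CCL28. Among the interleukins, IL18 was nearest to MOV10 (0.969) and ENSG00000258077 (0.965), IL1A to BNIP3P1 (0.975) and SLC6A4 (0.949), and IL32 to LRATD1 (0.997) and GPA33 (0.996).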

How the data were processed

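Poly(A)+ RNA was sequenced as single 75-base reads on strand specific libraries. Per the study's methods, reads were trimmed with Trim Galore 0.4.1, aligned with STAR to the human genome of Ensembl, stripped of multiple matches and counted per gene with HTSeq 0.5.3. What the authors deposited are counts by gene, 1 column of whole numbers to a technical replicate, without normalization. The submitters' processing notes name hg19, but the gene identifiers are those of GRCh38, of which GENCODE 29 holds 57980 of 58243, and positions are from GENCODE 29. The 8 technical replicates of a library (7 for 1 library of HT29 grown in 3D) differed by little more than counting error (median chi-square 0.999 to 1.03 times its expected median) and were summed to 24 libraries.

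Counts were fitted in R 4.3.3 with edgeR 4.0.16 (filterByExpr, TMM, robust quasi-likelihood, 1 coefficient for each of 8 groups, 24 libraries together), with Benjamini-Hochberg adjustment over 19387 genes. CPM are on the TMM scale. With 3 libraries against 3, an exact permutation test of a single gene cannot go below p = 0.1. Counting intervals at 95% are exact, and intervals and the floor of 3 counts cover counting error only, since the libraries have no molecular identifiers. The code was tested on simulated data. Named genes are the 10 members, the 2 largest called changes at 1 CPM or more in each of 7 related lists and each line, the 2 genes most like each member, and the marker genes, of which 1 is not reported here. Further genes of the related lists, named for their role beside a member (ADAM10, ADAM17, CASP1, CCR6, IL18BP and others), were added once their values were known. The members and lists were chosen with earlier results of these data known. Replicate numbers did not pair the 2D and 3D libraries of a line (correlations of deviations between same-numbered libraries from -0.146 to 0.0938). Alternatives were the size factors of DESeq2, DESeq2 1.42.0 itself, no filter on low genes (1 count or more), a replicate block, the libraries of a line alone, the fold cutoffs of the study and leaving out each library.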

Additional observations from a re-analysis of the deposited data

Results flagged for a closer look

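For 6 of the 10 transcripts the change from 2D to 3D differed between the 4 lines in the joint test (edgeR, adjusted over all tested genes). IL18 had an adjusted p of 1.7e-08, with a rise in HCT116 and a fall in HT29. CXCL16 had 0.000325, with a rise in LS513 and lower values in HT29. CCL20 had 0.00183 and CXCL2 0.00931, the former higher in 3D in LS513 and the latter in LS174T. IL1A had 0.0189 on at most 28 counts in any library. CXCL3 had 0.0465 and was lost in 21 of the 24 fits that left out 1 library, all but those without LS513 3D replicate 3, LS174T 2D replicate 2 or LS174T 3D replicate 3. IL1A was lost without LS174T 2D replicate 2 (0.0536) or replicate 3 (0.0529), and the other 4 were called in all 24 such fits.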

How the results depend on the processing

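With the fold cutoffs of the study (log2 fold change under -0.5 or over 1.5), 3 of the 10 transcripts passed for HT29, 2 for LS513, 0 for HCT116 and 2 for LS174T, and 3371, 1557, 1800 and 1407 of all genes, against 7887, 4571, 5637 and 4305 at an adjusted p under 0.05 alone. Of the 2 HCT116 transcripts called without these cutoffs, neither has a log2 fold change over 1.5, and with DESeq2 and no cutoff 3 transcripts were called there. With only the 6 LS174T libraries in the fit, 2 transcripts and 1648 genes were called in LS174T. With no filter on low genes, 9 transcripts passed the joint test. With the replicate block, 3 transcripts passed the joint test in place of 6, since CXCL2 (adjusted p = 0.119), CXCL3 (0.142) and IL1A (0.160) missed it, and CXCL16 in HT29 was lost (0.153) and CXCL8 in HCT116 gained (0.0368); it changed no other call for these genes. The cause of these changes was not tested.

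Leaving out 1 library gave 1 to 3 called transcripts in HCT116, and the 1 was without 2D replicate 2 or 3D replicate 1. The genes called ran from 2784 to 5221 in LS513 (lowest without 3D replicate 2, and 3030 without 2D replicate 2), from 3747 to 5986 in HCT116 (lowest without 2D replicate 1) and from 2083 to 6038 in LS174T (lowest without 3D replicate 2, with 2616 to 2781 without a 2D replicate). Values that were not called changed sign when 1 library was left out: CXCL8 in HT29 (-0.41 to 0.37), CXCL1 (-0.25 to 1.05), CXCL3 (-0.17 to 0.0674) and CCL20 (-0.29 to 1.20) in HCT116, and CXCL16 in LS174T (-0.14 to 0.0444). The same held between lines for LS174T against LS513 in 2D in CXCL16 (-0.0225 to 0.16), CCL20 (-0.49 to 0.24) and IL18 (-0.0192 to 0.13), for CXCL8 in HT29 against LS513 in 3D (-0.43 to 0.60) and for CCL20 in LS174T against HT29 in 3D (-0.29 to 1.00). With all genes of at least 1 count, CCL20 in LS174T against LS513 in 2D was -0.0111. The size factors of DESeq2 kept all counts of called transcripts within 1.5 times, and ended the joint call of CXCL3 (0.0517). DESeq2 gives no adjusted p for IL1A in LS174T. Depth limits IL1A, CCL20, CCL28 and IL32 where libraries hold 3 counts or fewer.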

Other observations

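Other members of the IL-1 family, outside the 10 transcripts, changed with growth in these lines. IL1RN, the receptor antagonist that blocks IL1A, rose in LS513 from 35.1 ± 7.88 to 184 ± 19.1 CPM (n = 3; log2 fold change 2.39, SE 0.19, adjusted p = 6.45e-09, edgeR) and in HCT116 from 0.357 to 1.43 CPM (2.01, adjusted p = 0.000254). IL37, an anti-inflammatory family member, rose in LS174T from 0.530 ± 0.119 to 7.66 ± 0.645 CPM (3.85, SE 0.25, adjusted p = 5.73e-09) and in LS513 from 0.334 to 1.67 CPM (2.31, adjusted p = 8.83e-06). IL1B rose in LS174T from 0.176 to 1.14 CPM (2.67, adjusted p = 0.000161). Outside this family, IL34 rose in HT29 from 5.81 to 11.9 CPM (1.02, adjusted p = 0.00164). IL15 rose in HCT116 from 0.838 to 1.61 CPM (0.94, adjusted p = 0.00101). Of 28 other interleukin and colony stimulating factor genes, 16 were tested, and 2 rose in HT29 (12.5%, against 40.7% of all genes called), 5 rose and 1 fell in LS513 (37.5% against 23.6%), 4 rose in HCT116 (25.0% against 29.1%) and 4 rose in LS174T (25.0% against 22.2%).

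Among chemokines beside the 10 transcripts, the ELR genes CXCL5, CXCL6 and PPBP were not tested, with at most 7 counts in any library. CCL5 rose by 2.48 in HT29 (SE 0.49, 0.272 CPM in 2D and 1.58 CPM in 3D, adjusted p = 0.000549) and by 1.67 in LS513 (1.33 and 4.25 CPM, adjusted p = 0.00297). CCL24, an eosinophil attractant, fell by 0.61 in LS513 (13.5 CPM in 2D and 8.81 CPM in 3D, adjusted p = 0.0216) and rose by 2.42 in LS174T (0.186 and 1.01 CPM, adjusted p = 1.82e-05). CCL15 rose in HT29 from 6.98 to 17.8 CPM (1.35, adjusted p = 1.06e-05), as did CXCL17 from 0.704 to 2.62 CPM (1.91, adjusted p = 0.000935).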
